A study of Mus musculus with 3 samples.

Results

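The genes that write and erase DNA methylation were themselves examined for methylated regions in mouse epididymal fat. The set holds 8 genes, chosen by name: Dnmt1, Uhrf1, Dnmt3a, Dnmt3b, Dnmt3l, Tet1, Tet2 and Tet3, of 21887 protein-coding gene records in all. For each gene every deposited peak that touched its RefSeq record or the 2000 bp on either side of it was taken, in build mm10. These windows held 37 of the 101532 peaks on the normal diet, 57 of 135124 on the high-fat diet and 33 of 95501 where folic acid was added to it, 127 peaks in all.

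DNMT1 copies methylation onto new DNA strands after replication, and UHRF1 brings it to half-methylated sites and marks the histones there. DNMT3A and DNMT3B place methylation on unmethylated DNA, and DNMT3L, which has no catalytic activity of its own, assists them, mainly in germ cells. The TET enzymes oxidise 5-methylcytosine, the step that opens active demethylation. Folate supplies one-carbon units for the methyl donor that all DNA methyltransferases use.

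Methylated DNA immunoprecipitation sequencing (MeDIP-seq) enriches methylated fragments with an antibody, and enriched stretches are called as peaks. The animals were male C57BL/6J mice, put on their diets at 6 weeks of age and 16 weeks old at sampling. For 10 weeks they received a normal diet with 10% of its energy from fat (ND), a high-fat diet with 60% (HFD), or the high-fat chow together with drinking water that held 20 μg/mL folic acid (FAD). No source used here says whether 1 animal or several went into a library. Each diet has 1 library, so every difference below lies between libraries, has no replicate check and carries no p-value. A peak's score is the authors' own, with a scale that is not stated. The score is used here to rank and filter peaks, in places with the same cut for every list. Scores of different libraries are also given side by side, but whether the scale is the same in each library was not tested. Read depth is unknown from peak lists, and a missing peak means only that nothing passed the caller's threshold there. The lists differed in length and in peak width, with medians of 507 bp in ND, 587 bp in HFD and 447 bp in FAD.

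Fat is a mixture of cells, and a peak shows neither the cell type it came from nor the share of cells that carry it. Gene starts were read only where the strand is known. Of 10 adipocyte marker genes 7 could be read, of which 0 had a peak at the start in ND, 2 (Plin1 and Retn) in HFD and 1 (Lep) in FAD. Of 8 leukocyte markers 5 could be read, and Itgam alone had one, in each library. None was found at the starts that could be read of endothelial (2 of 4), epididymal (4 of 5) and mesothelial or fibroblast markers (2 of 5). Of all protein-coding records with known strand, 10.1% had a peak at the start in ND, 14.5% in HFD and 9.09% in FAD. Over the whole gene windows, the markers held 5, 13 and 7 peaks in ND, HFD and FAD for adipocytes, 9, 17 and 12 for leukocytes, and 14, 24 and 16 for endothelium. They held 0, 5 and 1 for epididymis and 9, 13 and 8 for mesothelium and fibroblasts, so HFD had the most peaks for each set of markers. It also had the most over all protein-coding windows, with 1.38 times the ND peaks, and FAD there held 0.667 times the HFD peaks. The part that differing cell makeup has in the results below was not tested.

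The promoters of the 8 genes are shown first, because the 2 starts that lay under peaks are CpG-poor. RefSeq (assembly GRCm38.p6, the assembly of mm10) lists 15 start sites for the 8 genes, numbered here from the 5′ end of each gene, each with a stretch from 250 bp before to 50 bp after the start. The stretches below, 5′ to 3′ on the gene's strand, have their CpG dinucleotides, the sites of methylation in somatic mammalian cells, in capitals. They are the CpG-poorest and the CpG-richest start of Dnmt1 (chr9:20959839-20960138 and chr9:20952574-20952873, minus strand), the downstream start of Dnmt3a (chr12:3891494-3891793, plus strand), the 2 starts of Dnmt3l that lay under peaks (chr10:78049592-78049891 and chr10:78055085-78055384, plus strand), and the start of Tet2, the CpG-richest of all 15 (chr3:133544341-133544640, minus strand).
Dnmt1 start 1: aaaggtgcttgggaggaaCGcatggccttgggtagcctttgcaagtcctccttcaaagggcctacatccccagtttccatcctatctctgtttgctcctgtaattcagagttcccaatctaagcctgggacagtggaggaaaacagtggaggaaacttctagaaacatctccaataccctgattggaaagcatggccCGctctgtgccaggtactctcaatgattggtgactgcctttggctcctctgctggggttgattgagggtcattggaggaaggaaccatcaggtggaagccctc
Dnmt1 start 3: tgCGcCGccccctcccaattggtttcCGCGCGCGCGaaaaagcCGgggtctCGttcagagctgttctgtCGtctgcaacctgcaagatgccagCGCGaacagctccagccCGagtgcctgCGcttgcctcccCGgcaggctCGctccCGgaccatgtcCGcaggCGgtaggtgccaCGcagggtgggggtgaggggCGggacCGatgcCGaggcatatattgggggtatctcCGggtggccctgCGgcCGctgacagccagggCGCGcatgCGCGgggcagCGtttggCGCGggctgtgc
Dnmt3a start 3: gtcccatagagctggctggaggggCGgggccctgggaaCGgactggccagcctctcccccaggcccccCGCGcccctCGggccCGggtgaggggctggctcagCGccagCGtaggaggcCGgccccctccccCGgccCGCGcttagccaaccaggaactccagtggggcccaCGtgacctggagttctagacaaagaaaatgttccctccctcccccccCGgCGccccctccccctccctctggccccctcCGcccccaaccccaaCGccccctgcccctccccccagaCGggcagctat
Dnmt3l start 2: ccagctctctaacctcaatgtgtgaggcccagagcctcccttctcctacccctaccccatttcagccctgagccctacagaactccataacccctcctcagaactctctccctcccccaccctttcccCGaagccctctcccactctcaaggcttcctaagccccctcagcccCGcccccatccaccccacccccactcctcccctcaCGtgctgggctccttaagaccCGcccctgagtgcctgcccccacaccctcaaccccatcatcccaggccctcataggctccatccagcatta
Dnmt3l start 3: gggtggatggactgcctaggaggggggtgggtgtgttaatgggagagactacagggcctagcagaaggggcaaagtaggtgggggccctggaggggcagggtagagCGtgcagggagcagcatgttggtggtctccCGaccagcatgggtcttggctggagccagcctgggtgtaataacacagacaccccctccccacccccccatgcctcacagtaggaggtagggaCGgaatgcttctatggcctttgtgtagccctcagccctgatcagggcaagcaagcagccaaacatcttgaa
Tet2 start 1: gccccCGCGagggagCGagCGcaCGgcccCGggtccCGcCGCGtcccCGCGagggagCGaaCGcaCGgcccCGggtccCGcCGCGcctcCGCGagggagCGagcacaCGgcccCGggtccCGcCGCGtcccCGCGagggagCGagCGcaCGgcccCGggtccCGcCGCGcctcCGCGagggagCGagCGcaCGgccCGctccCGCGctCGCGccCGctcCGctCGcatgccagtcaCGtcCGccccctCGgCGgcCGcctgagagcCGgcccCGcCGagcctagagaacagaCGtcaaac
These stretches hold 2, 33, 18, 4, 3 and 57 CpG, in that order.

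None of the 11 starts with 12 or more CpG lay under a peak in any library, while 2 of the 4 starts with fewer CpG did, both in Dnmt3l. The limit of 12 CpG was set after these values were seen. From the 11 starts with 12 or more CpG to the nearest peak of any library the distance ran from 517 to 11956 bp, with a median of 6194 bp. From the other 4, start 1 of Dnmt1 and the 3 starts of Dnmt3l, it ran from 0 to 658 bp. Such distances were not computed for other promoters, so they have no background, and 3 of these 4 starts belong to 1 gene. Across 21263 promoter stretches of protein-coding genes, those with 12 or more CpG overlapped a peak in 1.49% of cases in ND, 1.74% in HFD and 1.42% in FAD, so a count of 0 among 11 lies near the background. Stretches with 3 to 5 CpG, the class of the 2 marked Dnmt3l starts, overlapped a peak in 3.0, 4.88 and 2.21% of cases. The highest shares fell on stretches with 6 to 11 CpG, at 7.44, 9.72 and 6.15%.

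**Figure D1:**
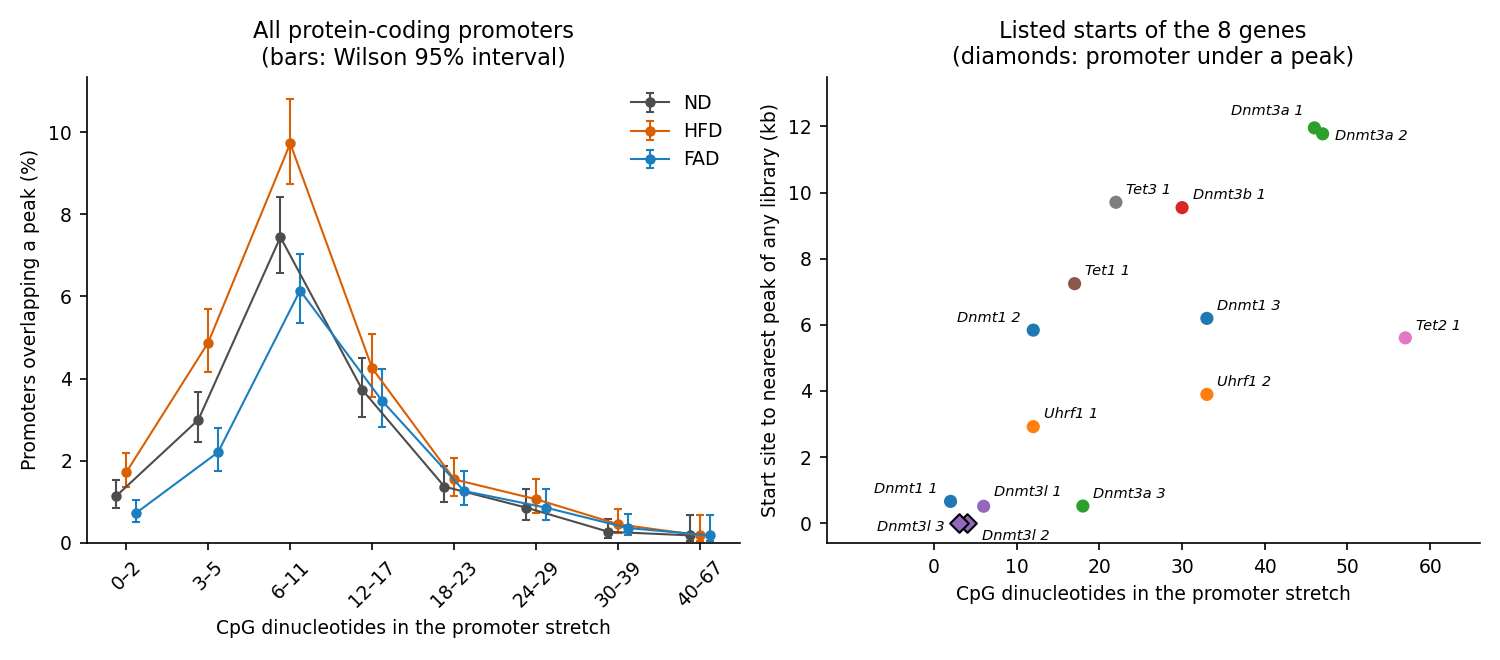
Left, the share of all protein-coding promoter stretches (250 bp before to 50 bp after a start) that overlap a peak, by number of CpG, in ND, HFD and FAD, with Wilson 95% intervals that cover counting error only. Right, each listed start of the 8 genes by its CpG number and its distance in kb to the nearest peak of any library: the 2 diamonds at 0 kb are Dnmt3l starts 2 and 3, and Dnmt3a start 3, at 18 CpG, has a peak 517 bp away.

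With a window from 2000 bp before to 500 bp after the 5′ end of the gene record, 1 of the 8 genes (Dnmt1) was marked in ND, 2 (Dnmt1 and Dnmt3l) in HFD and 1 (Dnmt1) in FAD. The background was 10.1, 14.5 and 9.09% of 17492 protein-coding records whose strand is known. With every listed start counted, Dnmt3l was marked in FAD as well, and the 8 genes gave 1, 2 and 2 against 10.7, 15.3 and 9.57%. The start windows of Uhrf1, Dnmt3a, Dnmt3b, Tet1, Tet2 and Tet3 held no peak in any library. For Dnmt3a this depends on the limit of 500 bp, because downstream of its start 3 the nearest HFD and FAD peaks lay 517 and 591 bp away.

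All 8 genes held at least 1 peak in each library, mostly away from their starts. Among 7921 protein-coding records between 20150 and 112885 bp long, the span of the 8 genes, 83.4% held an ND peak, 89.5% an HFD peak and 81.2% a FAD peak, and among all 21887 records the shares were 64.5, 71.4 and 61.9%. Peaks covered 3.46% of the 8 windows in ND, 6.30% in HFD and 2.80% in FAD. Over all protein-coding windows, not matched for length, they covered 2.45, 3.91 and 1.97%, so the pooled share of the 8 windows was higher in each library. Not every gene was above it: in ND Dnmt3l, Dnmt3b and Dnmt3a lay below 2.45%. In FAD Dnmt3a (1.86%), Tet2 (1.85%) and Dnmt3b lay below 1.97%. By covered share, the genes ran in ND from Dnmt1 (6.13%) over Uhrf1 (5.53%), Tet1 (5.01%), Tet3 (4.25%), Tet2 (3.82%), Dnmt3l (1.99%) and Dnmt3b (1.57%) down to Dnmt3a (0.652%). In HFD Dnmt3l stood first at 8.85% and Dnmt3a last at 4.44%, and in FAD Dnmt1 stood first at 4.83% and Dnmt3b last at 0.593%. With 1 library a diet these orders carry no spread, so neighbours in them cannot be told apart.

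**Figure D2:**
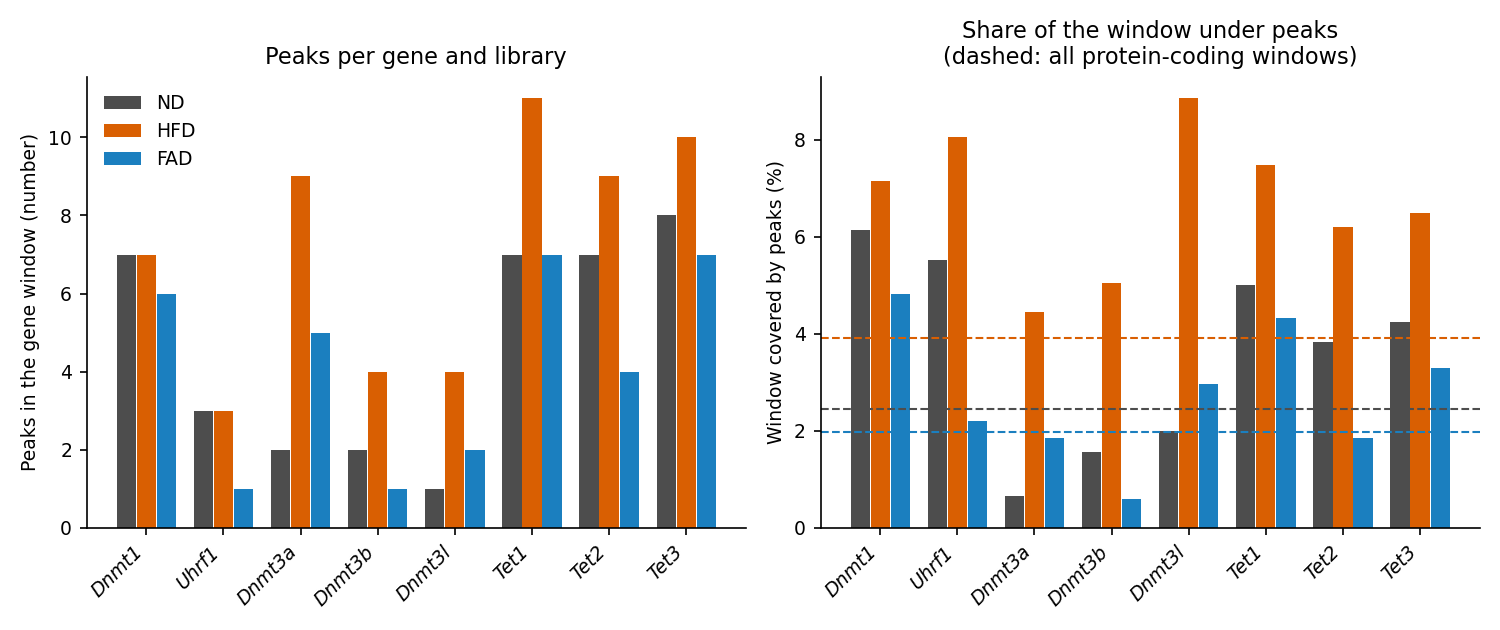
Left, the number of peaks in each gene window (record plus 2000 bp on each side) for ND, HFD and FAD, 1 library each. Right, the share of each window under peaks in percent, with dashed lines at the share over all protein-coding windows in the same library: HFD bars are the highest at every gene, from 4.44% at Dnmt3a to 8.85% at Dnmt3l. Of all protein-coding windows, not matched for length, 63.1% had more bases covered in HFD than in ND, and 4.97% had more in FAD than in HFD. The share of windows where HFD covered the most of all libraries was not computed, so that count has no background.

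HFD against ND asks how the methylated regions of these genes differ with dietary fat. HFD had more peaks than ND at 6 of the 8 genes, Dnmt3a, Dnmt3b, Dnmt3l, Tet1, Tet2 and Tet3, as many at Dnmt1 and Uhrf1, and fewer at none. The background for more HFD than ND peaks was 41.6% of all protein-coding records and 56.9% of records as long as the members. For fewer HFD peaks it was 7.79 and 9.99%. Over the 8 genes HFD had 1.54 times the ND peaks, against 1.38 times over all protein-coding windows and 1.33 times in the whole lists. Without Dnmt3a the ratio was 1.37. At the same 6 genes HFD had the most peaks of the 3 libraries, which held for 35.2% of all records and 48.5% of those as long as the members. It had the fewest at 0 genes, against 2.06 and 2.47%.

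FAD against HFD asks how folic acid on the same diet goes with these regions. FAD had fewer peaks than HFD at all 8 genes, and HFD exceeded FAD at 45.9% of all protein-coding records and 63.0% of those as long as the members. FAD had more at 0 genes, against 6.02 and 7.12%. Over the 8 genes FAD held 0.579 times the HFD peaks, against 0.667 times over all protein-coding windows and 0.707 times in the whole lists. FAD against ND shares its libraries with both comparisons. There 5 genes (Dnmt1, Uhrf1, Dnmt3b, Tet2 and Tet3) had more ND peaks, against 26.4 and 35.8% of records. Dnmt3a and Dnmt3l had more FAD peaks, against 16.6 and 22.1%, and Tet1 had 7 in each.

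Fewer genes differed this way once the 3 lists were made equally long. With the 95501 highest-scoring peaks of each library, the 8 genes held 36 ND, 36 HFD and 33 FAD peaks. The lowest score kept was 54.8 in ND, 73.2 in HFD and 50 in FAD. Weak HFD peaks were thus dropped where FAD peaks of the same score stayed. HFD then exceeded ND at 3 genes, Dnmt3a, Dnmt3l and Tet1, against 22.7% of all protein-coding records and 30.2% of those as long as the members. ND exceeded HFD at 4, Dnmt1, Uhrf1, Tet2 and Tet3, against 19.0 and 26.4%. HFD exceeded FAD at 4 genes, Uhrf1, Dnmt3b, Dnmt3l and Tet2, against 24.3 and 33.0%. At Dnmt3a the order turned, with 3 HFD and 5 FAD peaks, and FAD exceeded HFD in this way at 17.5 and 23.5% of records. Dnmt3l was the 1 gene where HFD stayed above both, with 1, 3 and 2 peaks in ND, HFD and FAD. The share of all records with HFD above both was not computed for lists of equal length, so this count has no background.

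**Figure D3:**
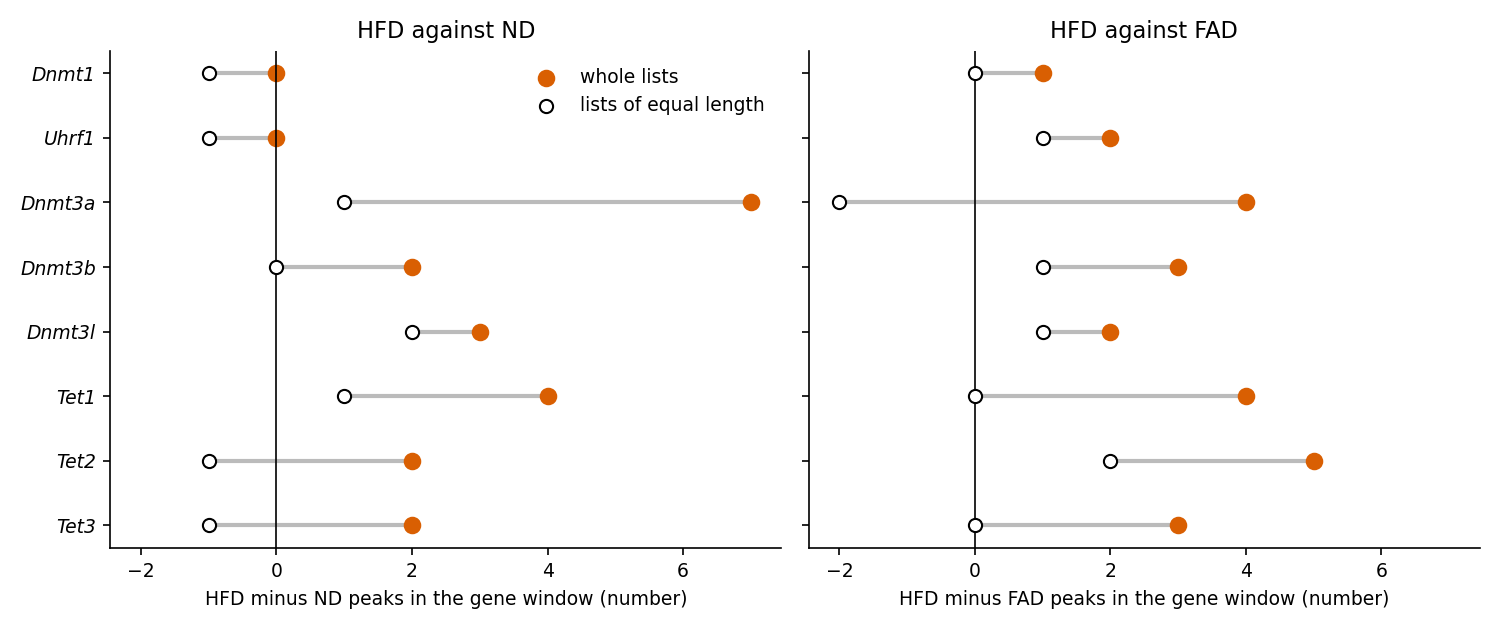
Difference in the number of peaks per gene window, HFD minus ND on the left and HFD minus FAD on the right, with the whole lists (filled) and with the 95501 highest-scoring peaks of each library (open). Dnmt3a moves from 7 to 1 in the left panel and from 4 to -2 in the right one.

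When overlapping peaks of the 3 libraries were joined, the 8 genes held 68 regions. All 3 libraries shared 21 of them, 30.9% (Wilson 95% interval 21.2 to 42.6%, counting error only), against 39.1% of 79751 regions over all protein-coding windows. HFD alone held 19 (27.9%, 18.7 to 39.6%), against 24.6%. ND alone held 7 and FAD alone 4, 10.3 and 5.88%, against 7.45 and 5.81%. ND and HFD shared 9 (13.2 against 12.2%), HFD and FAD 8 (11.8 against 8.70%), and ND and FAD shared 0, against 2.10%. Each of these background shares lay inside the interval of the members' share.

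Median scores were higher in regions of all 3 libraries than in regions of 1. A shared region must pass the threshold in every list, so sharing and score are not independent, and no background over all genes was computed. In regions of all 3 libraries the median score was 107 in ND, 158 in HFD and 118 in FAD, with highest scores of 372, 536 and 291. Of the 21 peaks of each library there, 9 in ND, 5 in HFD and 10 in FAD scored under 100. In regions of 1 library the medians were 66.3, 63.7 and 60.1, where every list begins at 50. Of the 30 such regions, 5 reached a score of 100, 4 in HFD and 1 in ND. A peak of another library lay within 1000 bp of 10 of the 30, and 5 had none within 10000 bp. These counts were not computed over all protein-coding windows, so whether they are particular to the 8 genes is not known. In 7 of the 8 genes the region with the highest HFD score was shared by all 3 libraries, the exception being Dnmt3l. Of all protein-coding records with an HFD peak this held for 71.2%, and for 74.1% of those as long as the members, so the count lies near the background. Within the 21 shared regions the HFD peak was wider than the ND peak in 18 and wider than the FAD peak in 19, with median widths of 491 bp in ND, 622 bp in HFD and 443 bp in FAD. Over all protein-coding windows the ND peak was narrower in 77.2% and the FAD peak in 89.6% of shared regions.

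**Figure D4:**
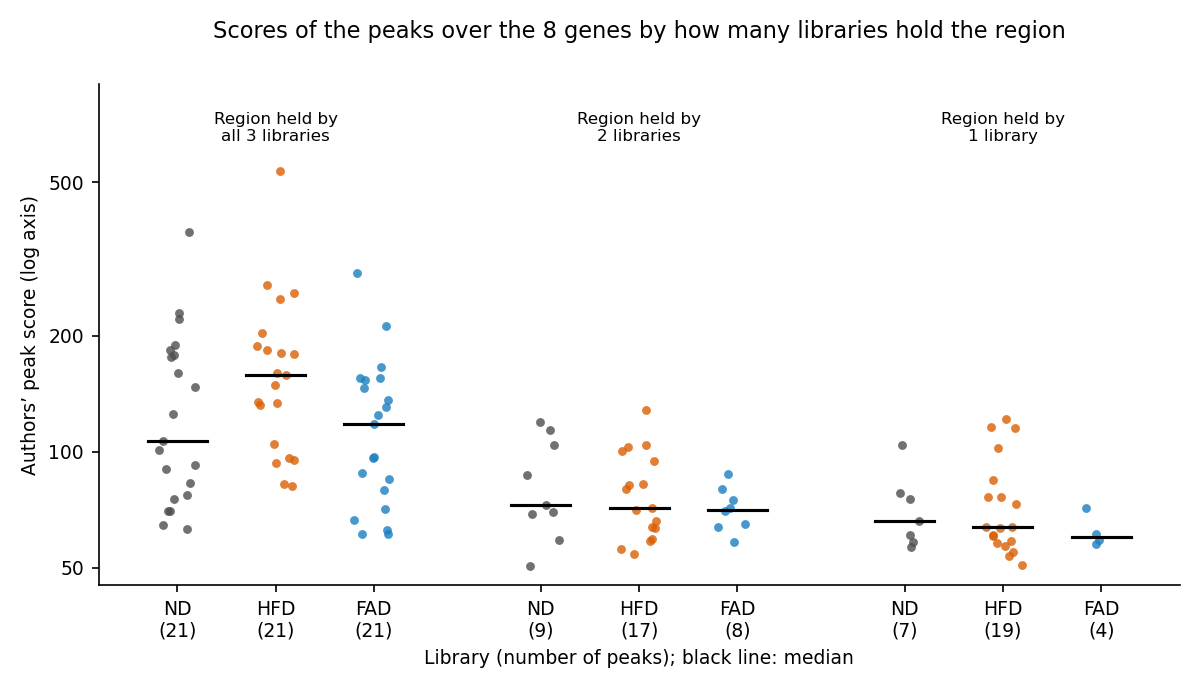
Authors' score (log axis) of each of the 127 peaks over the 8 genes, by library and by whether the joined region was held by 3, 2 or 1 libraries, with the number of peaks in brackets and black lines at medians. Regions held by all 3 libraries reach 536 in HFD, while those held by 1 library stay at or below 122.

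The libraries differed little in how many peaks lay in the 5′ part of these genes, and HFD had more than ND and FAD in the rest. When each record was cut into 3 equal parts, the 5′-most part held 8 of 55 HFD peaks inside the records (14.5%), against 27.1% in records as long as the members. In ND it held 10 of 36 (27.8 against 25.9%) and in FAD 8 of 32 (25 against 26.2%). The middle part held 10 peaks in ND, 20 in HFD and 9 in FAD, and the 3′-most part 16, 27 and 15. That last part thus had 44.4% of ND, 49.1% of HFD and 46.9% of FAD peaks, against 41.3, 39.7 and 40.8%.

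**Figure D5:**
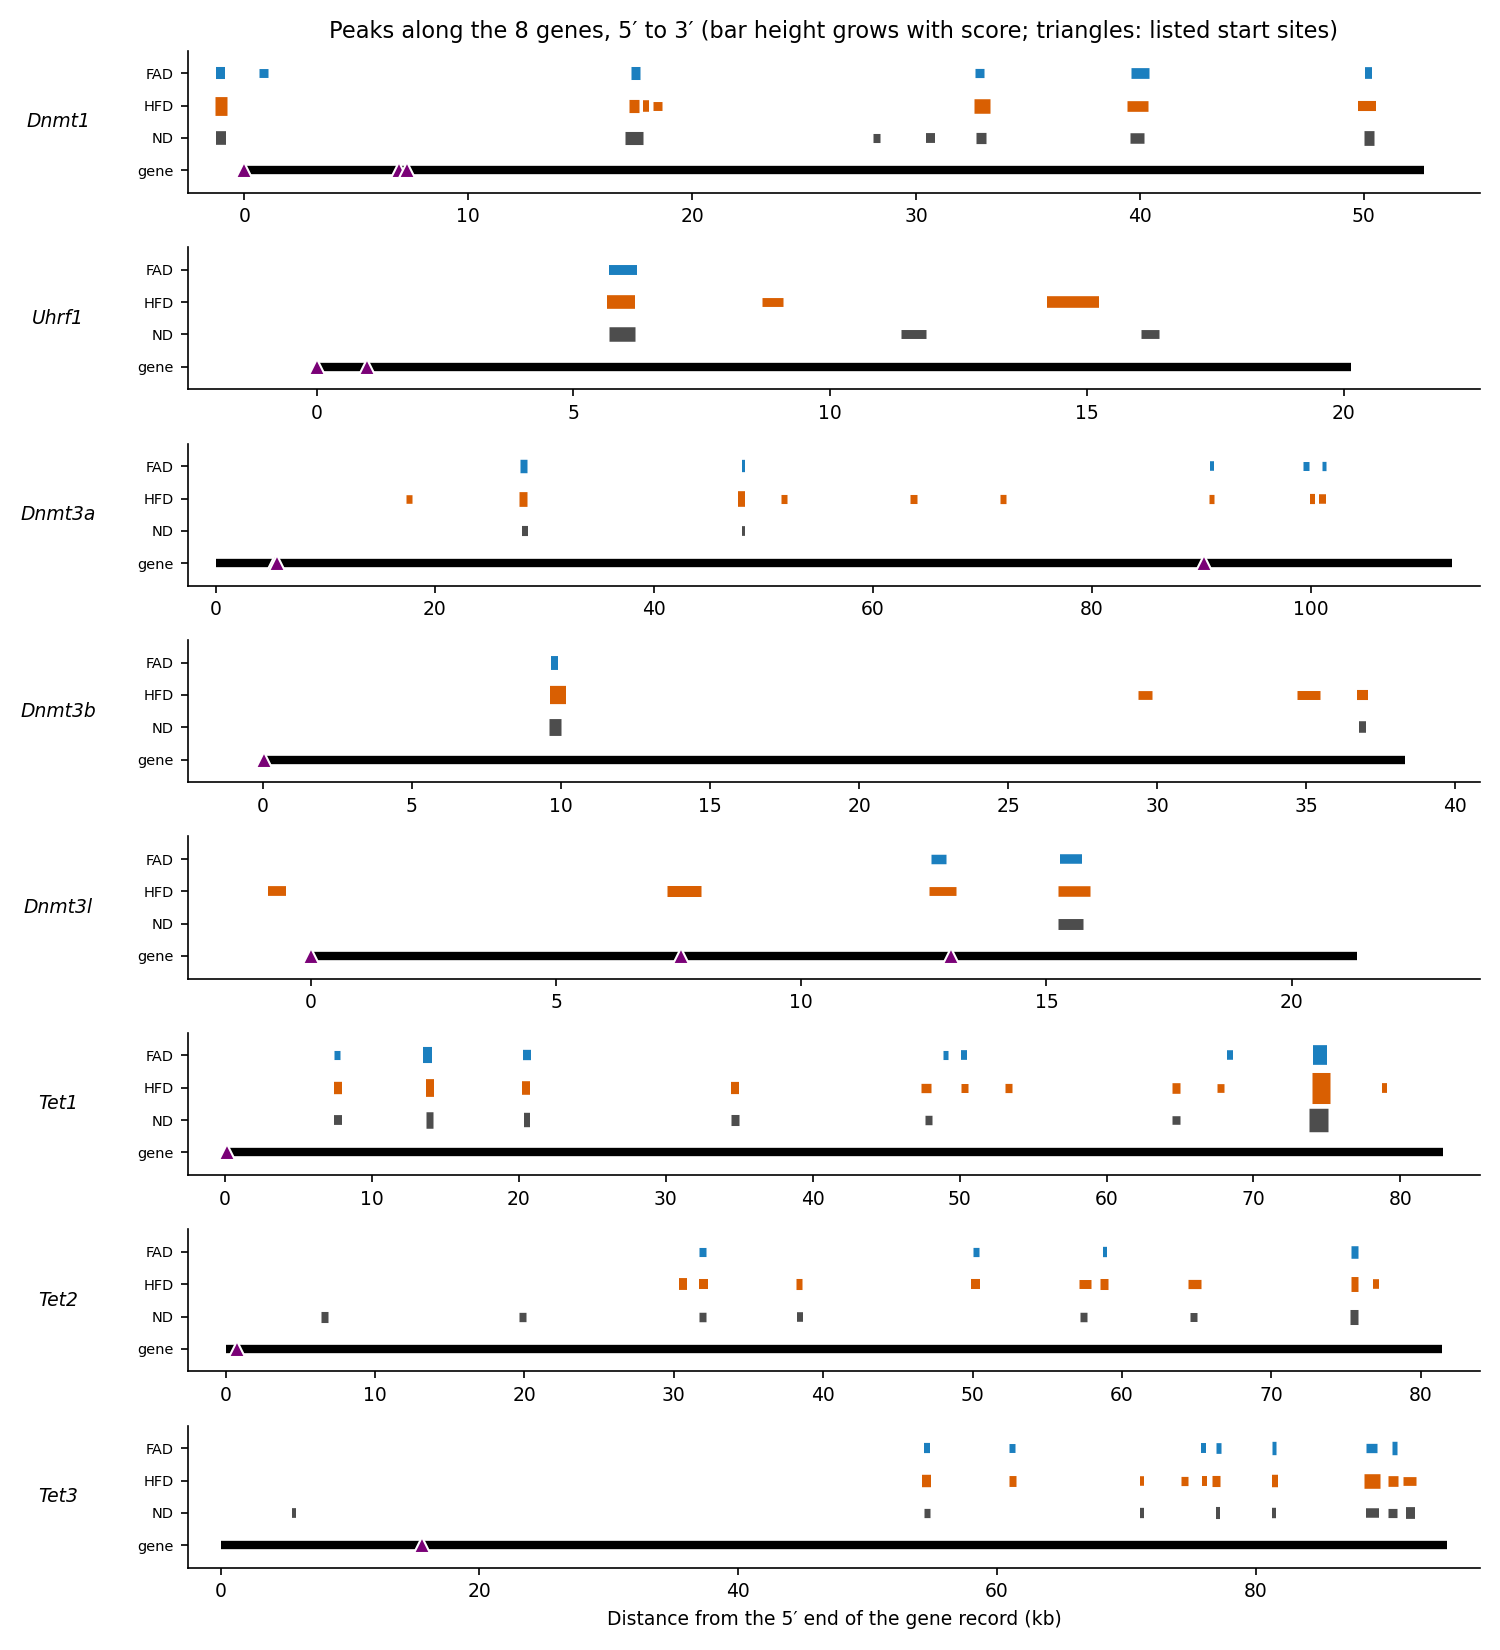
Peaks of ND, HFD and FAD along each gene, by distance in kb from the 5′ end of its record (black line), with triangles at listed starts. Bar length is peak width and bar height grows with the authors' score: the tallest bars lie near 74 kb in Tet1, and 10 of 11 Tet3 regions lie beyond 50% of its record, a share not computed for other genes.

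Dnmt1, the maintenance methyltransferase (chr9:20907206-20959888, minus strand), had 7 peaks in ND, 7 in HFD and 6 in FAD. It is known for an oocyte-specific first exon upstream of the somatic one, but the promoter table does not say which start serves which transcript. Its region with the highest HFD score, at chr9:20960677-20961210, lay 789 bp upstream of start 1, the CpG-poor one printed above, with scores of 160 in ND, 271 in HFD and 125 in FAD. On the other side of that start, 659 bp into the gene, FAD alone had a peak (chr9:20958818-20959229, score 57.5), with the nearest HFD peak 1447 bp away. Start 1 thus had a peak upstream in every library and a weak one on the gene side in FAD alone. Starts 2 and 3, with 12 and 33 CpG, had no peak within 5838 bp in any library.

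Of the 10 Dnmt1 regions, 5 were held by all 3 libraries. Those inside the gene were at chr9:20942088-20942885 (scores 147, 149 and 146 in ND, HFD and FAD), chr9:20926581-20927289 (107, 179 and 62.8), chr9:20919477-20920450 (92.5, 95.3 and 97.1) and, near the 3′ end, chr9:20909323-20910121 (184, 82.6 and 118). These regions are spread over the gene from the body to the 3′ end. HFD alone had a peak at chr9:20941807-20942069 (score 115, 263 bp wide), only 18 bp from the neighbouring ND peak, so it sits at the edge of a shared region. A further HFD peak followed at chr9:20941214-20941614 (57.9). ND alone had peaks at chr9:20929025-20929432 (78.0) and chr9:20931481-20931798 (60.8), 1735 and 4191 bp from the nearest HFD peak.

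Uhrf1 (chr17:56303337-56323486, plus strand), whose product recognises half-methylated DNA, had 3, 3 and 1 peaks in ND, HFD and FAD. Only 1 region was common to the libraries, at chr17:56309001-56309566, with scores of 178, 160 and 79.6. The other 4 regions alternated along the gene body without overlap. HFD alone held chr17:56312009-56312417 (56.9) and chr17:56317562-56318573 (116), the latter 1012 bp wide. ND alone held chr17:56314721-56315202 (58.4) and chr17:56319387-56319739 (56.5), the latter 813 bp from the wide HFD peak. Of the 3 peaks in each of ND and HFD, 1 thus lay in the common region and the others in different places. Apart from the HFD peak of 116, those others scored 56.5 to 58.4, where every list begins at 50. How often peaks alternate like this was not computed for other genes. FAD covered 0.272 times the HFD bases here.

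Dnmt3a, the main de novo methyltransferase of somatic cells (chr12:3801559-3914443, plus strand), is the longest of the 8 genes and had the largest difference in peak number between ND and HFD in the whole lists. It had 2 peaks in ND, 9 in HFD and 5 in FAD. An HFD excess of at least 7 peaks occurred in 2.35% of all protein-coding records and in 0.417% of those between 20150 and 112885 bp, of which Dnmt3a is the longest. Among 1175 protein-coding records from 90308 to 141106 bp long, it occurred in 47, 4%, and the medians were 5, 7 and 5 peaks. In those records, 24.4% had 2 or fewer ND peaks and 39.8% had 9 or more HFD peaks, so the ND count lay toward the low end and the HFD count did not stand out.

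The 2 Dnmt3a regions with the highest HFD scores were shared by all libraries, at chr12:3829224-3830019 (scores 83.0, 184 and 156 in ND, HFD and FAD) and chr12:3849266-3849873 (75.5, 203 and 131). The 5 regions of HFD alone were weak: chr12:3901428-3901926 scored 84.4 and chr12:3873153-3873657 scored 63.8, and the other 3 scored between 50.9 and 60.9. The first of these lay 48 bp from a peak of FAD alone at chr12:3900851-3901379 (59.2). With peaks of score 100 or more only, Dnmt3a held 0, 2 and 2 peaks in ND, HFD and FAD. These were the HFD and FAD peaks of the 2 regions shared by all libraries, where the ND peaks scored 83.0 and 75.5.

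ND had no peak downstream of the second of these, where HFD had 6 and FAD 3. HFD and FAD shared a peak at chr12:3892262-3892717 (scores 63.2 and 71.4), 518 bp downstream of start 3, the start printed above, with the nearest ND peak 37429 bp away. They also shared chr12:3902295-3902944 (70.6 and 64.9), 27202 bp from an ND peak. Dnmt3a is known to make a shorter protein from a promoter inside the gene, but the promoter table does not name the transcript of start 3. The first of these peaks also lies in the record of the long non-coding RNA Gm31623, so it cannot be given to Dnmt3a alone.

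Dnmt3b, the second de novo enzyme (chr2:153649411-153687730, plus strand), had 2 peaks in ND, 4 in HFD and 1 in FAD. Its highest-scoring region in each library, at chr2:153658994-153659566, was held by all 3 libraries with scores of 229, 259 and 165, and was the highest-scoring Dnmt or Uhrf1 region in ND and in FAD. In FAD that peak was only 251 bp wide, against 403 bp in ND and 539 bp in HFD. Near the 3′ end, ND and HFD shared chr2:153686097-153686472 (114 and 82.5), with the nearest FAD peak 8265 bp away. HFD alone held chr2:153684103-153684856 (58.7) and chr2:153678779-153679249 (54.9), both weak. The rodent gene Dnmt3c, listed by RefSeq as Dnmt3b-ps1 (chr2:153706484-153730013), lies next to Dnmt3b and is similar in sequence. It held 1 peak in each library. No source used here says how reads that map to both were treated.

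Dnmt3l, the germline cofactor (chr10:78042287-78063622, plus strand), differed from the other 7 genes in carrying peaks over listed starts. ND had 1 peak over it, HFD 4 and FAD 2. The HFD peak at chr10:78049557-78050232 (score 102, 676 bp wide) covered all 300 bp of the stretch at start 2, with the nearest ND peak 7293 bp and the nearest FAD peak 4706 bp away. It was the HFD peak with the highest score in the gene. At start 3, HFD (56.0) and FAD (70.2) shared chr10:78054900-78055442. The HFD peak covered all 300 bp of that stretch and the FAD peak 164 bp, and the nearest ND peak lay 2083 bp off.

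The region of all 3 libraries in Dnmt3l lay further downstream at chr10:78057524-78058180, with scores of 101, 93.4 and 71.1. Another HFD-only stretch, chr10:78041409-78041775 (76.3), lay 512 bp upstream of start 1. It falls inside the record of Aire, the gene of a thymic transcription factor, which overlaps the 5′ end of Dnmt3l. The promoters that carried peaks here hold only 4 and 3 CpG each, as the printed sequences show, whereas the flanking parts of those peaks were not read for sequence.

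Tet1 (chr10:62804570-62887469, minus strand) had 7 peaks in ND, 11 in HFD and 7 in FAD, the most HFD peaks of the 8 genes. The region at chr10:62812273-62813692, toward the 3′ end, scored 372 in ND, 536 in HFD and 291 in FAD, the highest of all 68 regions in each library, and its peaks were 1325, 1189 and 925 bp wide. It ranked at percentile 94.2 of the ND list, 98.1 of the HFD list and 92.5 of the FAD list. The other 3 regions common to all libraries lay in the 5′ part, at chr10:62873239-62874029 (222, 248 and 213), chr10:62866656-62867251 (176, 158 and 88.0) and chr10:62879487-62880079 (77.2, 132 and 61.3). These 3 also lie in the record of the long non-coding RNA Gm51805, which overlaps the start of Tet1.

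The other 9 Tet1 regions were held by 1 or 2 libraries. ND and HFD shared chr10:62852457-62853020 (104 and 128), 13635 bp from any FAD peak, and 2 weaker regions at chr10:62839358-62840131 (69.1 and 66) and chr10:62822446-62823027 (50.7 and 94.8). HFD and FAD shared chr10:62836898-62837393 (59.2 and 74.9). FAD alone held chr10:62818855-62819277 (71.5), 223 bp from an HFD-only peak, and chr10:62838260-62838597 (61.1). HFD alone held 3, with scores from 53.7 to 76.4. The total of 7 in both ND and FAD therefore covers 4 common regions and 3 others in each, with none of the others shared by the pair.

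Tet2 (chr3:133463677-133545136, minus strand), mutated often in blood cancers in humans, had 7 peaks in ND, 9 in HFD and 4 in FAD, the largest fall in number from HFD to FAD. The peak nearest to its start, which has 57 CpG, was an ND peak 5605 bp away. The regions common to all libraries were chr3:133469327-133469841 (scores 190, 188 and 136) near the 3′ end and chr3:133512840-133513469 (70.2, 81.3 and 61). ND alone held the 2 regions nearest the start, chr3:133538278-133538784 (104) and chr3:133525052-133525525 (66.3). The nearest HFD peaks were 17911 and 10295 bp away and the nearest FAD peaks 17968 and 11611 bp. The first was the 1 ND-only region of the 8 genes with a score above 100.

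Elsewhere in Tet2, ND and HFD shared 3 regions and HFD and FAD 2. The ND and HFD pairs scored 72.6 and 104 at chr3:133506518-133506956, 69.8 and 58.7 at chr3:133487175-133488017, and 59.0 and 63.6 at chr3:133479864-133480720. The HFD and FAD pairs scored 103 and 87.7 at chr3:133486058-133486613 and 82.1 and 63.7 at chr3:133494646-133495217. HFD alone held chr3:133514246-133514756 (122), the highest score among regions of HFD alone, and an ND peak lay 782 bp and a FAD peak 805 bp away. With lists of equal length Tet2 held 7, 6 and 4 peaks.

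Tet3 (chr6:83362373-83457208, minus strand) had 8 peaks in ND, 10 in HFD and 7 in FAD, and these were gathered in its 3′ part. Of its 11 regions, 10 lay beyond 50% of the record, and the nearest of these to the listed start was 38689 bp from it. The exception, at chr6:83451385-83451693 (score 75.5), was held by ND alone, lay 9707 bp upstream of the listed start but inside the record, and was 12729 bp from any HFD peak. With 5 regions common to all libraries, Tet3 matched Dnmt1.

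All 5 common regions of Tet3 lay in this 3′ cluster. The peaks at chr6:83379867-83380556 scored 125, 105 and 96.3 in ND, HFD and FAD, and those at chr6:83375498-83375956 scored 90.1, 135 and 153. At chr6:83367596-83368828 the scores were 70.3, 180 and 66.3 and the widths 1022, 1233 and 856 bp, the widest of the gene in each library. At chr6:83366213-83366950 they were 63.0, 96.1 and 155, the last being the highest FAD score in the gene. The last of the 5, chr6:83402327-83402989, scored 64.5, 134 and 84.9. Pairs of libraries shared 4 more regions of the cluster. ND and HFD shared chr6:83364779-83365838 (120 and 54.2) and chr6:83385803-83386165 (87.1 and 71.6). HFD and FAD shared chr6:83395744-83396282 (101 and 58.3) and chr6:83380988-83381408 (80.2 and 80.0), and HFD alone held chr6:83382463-83382940 (63.7).

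For each gene, the protein-coding gene of like length with the nearest covered share over the 3 libraries was sought. For Dnmt3a it was Cracr2a, with 0.839, 4.61 and 2.01% covered in ND, HFD and FAD, 0.290 percentage points away by Euclidean distance, beside 0.652, 4.44 and 1.86% for Dnmt3a itself. The nearest to Dnmt1, Uhrf1 and Dnmt3b were Gfod2, Zfp444 and Gabrr2. Dnmt3l had the least close match, Lactb, at 0.852 points. Pxylp1, Limk2 and Galnt2 were nearest to Tet1, Tet2 and Tet3. Distances other than that of Dnmt3l were between 0.133 and 0.337 points.

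Other genes of DNA methylation and demethylation were read as a list of 38, among them UHRF1's relative Uhrf2, the glycosylase gene Tdg, which removes oxidised cytosines, and genes of base excision repair. Of the 38, 21 held an ND peak in the gene window, 27 held one of HFD and 21 one of FAD. Over all protein-coding records these shares were 64.5, 71.4 and 61.9%. HFD had more peaks than ND at 16 and fewer at 3, where the shares over all records were 41.6 and 7.79%. It had more than FAD at 14 and fewer at 0, against 45.9 and 6.02%, and these counts lie near or below those shares. The median was 1, 2 and 1 peaks in ND, HFD and FAD. No library had a peak at 11 of them, among these Uhrf2, Trdmt1 and Qser1, whose records are 63297, 39919 and 63888 bp long. The 3 genes with fewer HFD than ND peaks were Cdca7, with 2, 1 and 0 peaks in ND, HFD and FAD, Tdg, with 4, 2 and 2, and Neil3, with 3, 2 and 1.

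Gene starts of that list were marked at 4 genes in ND, 5 in HFD and 5 in FAD, of 33 with known strand, near the 10.1, 14.5 and 9.09% of all records with known strand. The ligase gene Lig1 and the repair genes Xrcc1 and Smug1 were marked in all 3 libraries. Usp7, which encodes a deubiquitinase that acts on UHRF1 and DNMT1, was marked in ND and FAD. Apobec2 was marked in HFD and FAD, and Zfp57, the gene of a protein that keeps imprints methylated, in HFD alone.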

How the data were processed

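MeDIP-seq of epididymal fat gave 1 library for each of 3 diets, grouped by the labels. The deposited peak lists hold position and a score for each peak, and per the submitters' processing notes the build is mm10. The names given to the peaks start with MACS, a peak caller. Caller version, settings, control sample, aligner and depth were not stated in the sources used here.

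BED starts were raised by 1. Overlap needed 1 bp. Gene records came from a RefSeq table of GRCm38.p6, which gives no exons or introns, and strand and start sites from its promoter table. Genes without a known strand, all outside the 8, were left out at starts, although the plan was to read both record ends. The design had no test, since each diet has 1 library. Window counts equalled those of bedtools 2.31.1 in 65661 of 65661 comparisons, and planted peaks were recovered on simulated data. Intervals are Wilson 95% intervals. Named regions were, by rule, each gene's highest-scoring region, those at starts and the 2 highest of each gene held by 1 or 2 libraries. Further regions were added to describe the genes, after their values were seen. The 8 genes and the lists were chosen with earlier results of these data known, and the CpG limit, the gap limits, the share for top HFD regions and the records set beside Dnmt3a after the values were seen. Alternatives were other flanks (0 and 5000 bp), whole peaks, a score of 100, the top 50%, equal-length lists, joining over 500 bp, 50% reciprocal overlap and other start windows. Scripts ran in Python 3.11.15 with matplotlib 3.10.9, scipy 1.17.1, pandas 2.3.3 and numpy 2.4.6.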

Additional observations from a re-analysis of the deposited data

How the results depend on the processing

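Counts at the 8 genes depended mainly on which weak peaks were kept. Of 76 values under alternatives, 56 stayed within 1.5 times the reported value. With lists of equal length the HFD peaks fell from 57 to 36, regions of HFD alone from 19 to 8, genes with more HFD than ND peaks from 6 to 3, and genes with more HFD than FAD peaks from 8 to 4. This setting drops peaks with the lowest scores, most of them from HFD. With a score of 100 or more the peaks numbered 16 in ND, 24 in HFD and 11 in FAD, with 6 regions in all 3 libraries and 10 in HFD alone. With the top 50% of each list by score they numbered 16, 24 and 12, with 6 and 10 such regions, and HFD exceeded FAD at 5 genes. Genes marked at the start in HFD fell from 2 to 1 with a score of 100 or more, with the top 50%, and with the promoter stretch of 250 bp before to 50 bp after any listed start, where ND fell from 1 to 0. Counting every listed start, chosen after seeing the data, raised FAD from 1 to 2. No paired analysis was possible because each diet has 1 library, and for the same reason no replicate could be left out. Read depth limits every absent peak and is unknown from these lists.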
